A study of Mus musculus with 9 samples.

Results

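Tight junctions, adherens junctions, desmosomes and gap junctions hold the cells of the enamel organ together and pass signals between them, and 42 genes encoding their parts were followed in the enamel organ of mice raised under early life adversity (ELA). The genes were taken by name from the deposited table of 54532 genes. They comprise 11 genes of claudins and other tight junction strand proteins, 5 of the tight junction plaque and its adhesion partners, 5 cadherins and catenins, 4 nectins, 4 desmosomal cadherins, 8 genes of the desmosomal plaque and its relatives, and 5 connexins and pannexins. All 42 were in the table. Of these, 37 had enough reads to be tested among 15909 genes, and 5 (Cldn3, Cldn7, Cldn8, Cldn23 and Cgn) did not.

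The study set 5 ELA mice against 4 control mice, all male pups of the C57BL/6 strain at postnatal day 12. Cages of the ELA litters were given little to build a nest with and little bedding, starting on postnatal day 2 and lasting until the tissue was taken. Both groups were offspring of Crh-IRES-Cre +/+ dams and Ai14 tdTomato males, so every animal carried a Cre under the corticotropin-releasing hormone locus and a Cre-dependent red reporter. Polyadenylated RNA of the first molar enamel organ was sequenced, 1 library a mouse, and reads were counted per gene. Gene positions are those of the deposited table, which for 39 of the 42 genes equal GENCODE M21 on GRCm38 (Epcam, Ctnna1 and Dsg3 differ). Titles of the samples open with a tag that is shared by some mice of a group: t-205 for ELA mice 1 and 2, t-203 for ELA mice 3, 4 and 5, c-204 for control mice 1 and 2, and c-202 for control mice 3 and 4. What this tag stands for is not given in the labels, no tag occurs in both groups, and mice that share one may not be independent.

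The enamel organ is an epithelium. Its ameloblasts secrete the enamel matrix and later help to remove it, and during that time they are joined at both cell ends by tight and adherens junctions that control what passes between the cells. The layer next to them, the stratum intermedium and later the papillary layer, is tied to the ameloblasts by desmosomes and by gap junctions. Claudins seal or open the space between cells, cadherins and nectins bind partner proteins on the neighbour, and desmosomal cadherins anchor the keratin network through the plaque proteins. Connexins form the channels of gap junctions. Defects in several of these genes are known to disturb enamel in mice or in people, among them claudin, nectin, Perp and Gja1 genes.

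Promoter sequence is shown for 3 of the 4 genes with the lowest p-values (Nectin3, Nectin4 and Gjb2) and for Cldn1, the most abundant gene of the list and the one that varied most between mice. Each stretch is 150 bases or less, read 5′ to 3′ on the gene's own strand up to the transcription start given by RefSeq on GRCm38.p6, and was shortened where an annotated exon began. Capitals mark a GC box (GGGCGG, or CCGCCC on the other strand) or the E-box letters CACCTG or CAGGTG that repressors of junction genes such as Snai2 and Zeb1 are known to bind.
Nectin3, chr16:46496968-46497117, minus strand: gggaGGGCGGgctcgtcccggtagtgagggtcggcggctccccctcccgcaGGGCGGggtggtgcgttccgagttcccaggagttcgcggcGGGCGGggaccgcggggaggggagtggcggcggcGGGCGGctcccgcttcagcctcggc
Nectin4, chr1:171370023-171370098, plus strand: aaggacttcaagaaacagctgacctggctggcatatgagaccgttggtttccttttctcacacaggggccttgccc
Gjb2, chr14:57104703-57104852, minus strand: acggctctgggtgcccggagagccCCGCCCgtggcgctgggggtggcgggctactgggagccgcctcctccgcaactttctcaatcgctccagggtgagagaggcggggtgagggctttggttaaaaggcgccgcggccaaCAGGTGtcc
Cldn1, chr16:26371842-26371989, minus strand: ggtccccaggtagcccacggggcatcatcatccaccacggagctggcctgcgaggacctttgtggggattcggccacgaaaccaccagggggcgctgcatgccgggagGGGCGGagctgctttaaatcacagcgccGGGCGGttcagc
The Nectin3 stretch lies before a start inside the span that the deposited table gives for the gene. Nectin3 held 4 GC boxes, Cldn1 held 2, and Gjb2 held 1 GC box and 1 E-box, while the 76 bases of Nectin4 held neither. Of the 42 genes, 24 were matched in the RefSeq promoter table used here, with 33 start sites between them. A GC box was present within 150 bases before 20 of these 33 starts, against 28.62% of all 32851 starts, and an E-box before 9 of 33, against 10.6% of all. The letters AACCGGTT, to which grainyhead-like factors bind, were before 0 of the 33 starts and before 0.0639% of all. Matches of letters are a description of the sequence only.

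Libraries held 18056774 to 32110160 counted reads in ELA mice, against 18683431 to 20831736 in control mice. Values are given as CPM, the reads of a gene for each 1000000 reads of its library after TMM scaling (trimmed mean of M-values), and as FPKM, the same divided by the length of the gene in kilobases, where genes are compared with each other. The markers of enamel organ epithelium summed to 8329 to 14377 CPM in ELA mice, against 10292 to 15984 CPM in control mice. The markers of ameloblasts summed to 104793 to 167802 CPM in ELA mice, against 78824 to 104359 CPM in control mice, narrowly without overlap. Most of this sum was Ambn and Amelx. Of the 8 markers, 7 had a positive log2 fold change, but that of Klk4 was 0.00 and that of Mmp20 was 0.08, and Odam had -0.24. Groups did not overlap in Amelx and Enam only. The markers of the stratum intermedium or papillary layer summed to 2062 to 2470 CPM in ELA mice, against 1680 to 1926 CPM in control mice, without overlap. The mean was higher in ELA in 4 of 6 (Alpl, Notch1, Hes1 and Tfrc), and 0 of 6 were past the adjusted threshold in edgeR. Most of this sum was Alpl, at 1488 to 1777 CPM in ELA mice, against 1276 to 1429 CPM in control mice. Alpl was the 1 marker of the 6 whose groups did not overlap. Some libraries stood apart. In ELA mouse 2, 12 markers listed as keratinized oral epithelium summed to 3787 CPM, against 111 to 330 CPM in the other ELA mice and 230 to 636 CPM in control mice. Most of the 3787 CPM was Krt4 (1383 CPM) and Krt13 (1751 CPM), keratins known from oral epithelium that is not keratinized. Krt16, Lor, Krtdap, Sprr1a, Sbsn and Dsg1a were also highest in ELA mouse 2, and Krt1, Krt10, Krt6a and Ivl were within the control range. Below, keratinized markers is the name of this list and not of a cell type. In ELA mouse 4, 8 neuronal markers summed to 655 CPM, against 65.2 to 107 CPM in the other ELA mice and 60.7 to 89.4 CPM in control mice. All 10 markers of mesenchyme and fibroblasts had a lower mean in ELA, with a median log2 fold change of -0.50. In bulk tissue, fewer cells of a kind and less RNA per cell cannot be told apart.

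Mean levels of the junction genes ranged over several orders of magnitude, with Cgn lowest in ELA mice at 0.135 FPKM, against 0.0602 FPKM in control mice, and Cldn23 lowest in control mice, at 0.169 FPKM in ELA mice, against 0.0276 FPKM in control mice. Cldn1, which encodes the sealing claudin-1 of many epithelia, was the most abundant at 474 ± 213 FPKM in ELA mice, against 475 ± 266 FPKM in control mice (SD, n = 5 and 4). Perp, a tetraspan membrane protein of desmosomes, followed at 394 ± 93.0 FPKM in ELA mice, against 446 ± 85.5 FPKM in control mice, and Gja1, which encodes connexin 43, at 360 ± 96.9 FPKM in ELA mice, against 315 ± 81.7 FPKM in control mice. The order of these 3 lay within the spread between mice. Over all 9 mice, 6 genes were above 100 FPKM (with Ctnnb1, F11r and Ctnna1 as the other members), 18 were between 10 and 100 FPKM, 10 were between 1 and 10 FPKM and 8 were under 1 FPKM.

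**Figure D1:**
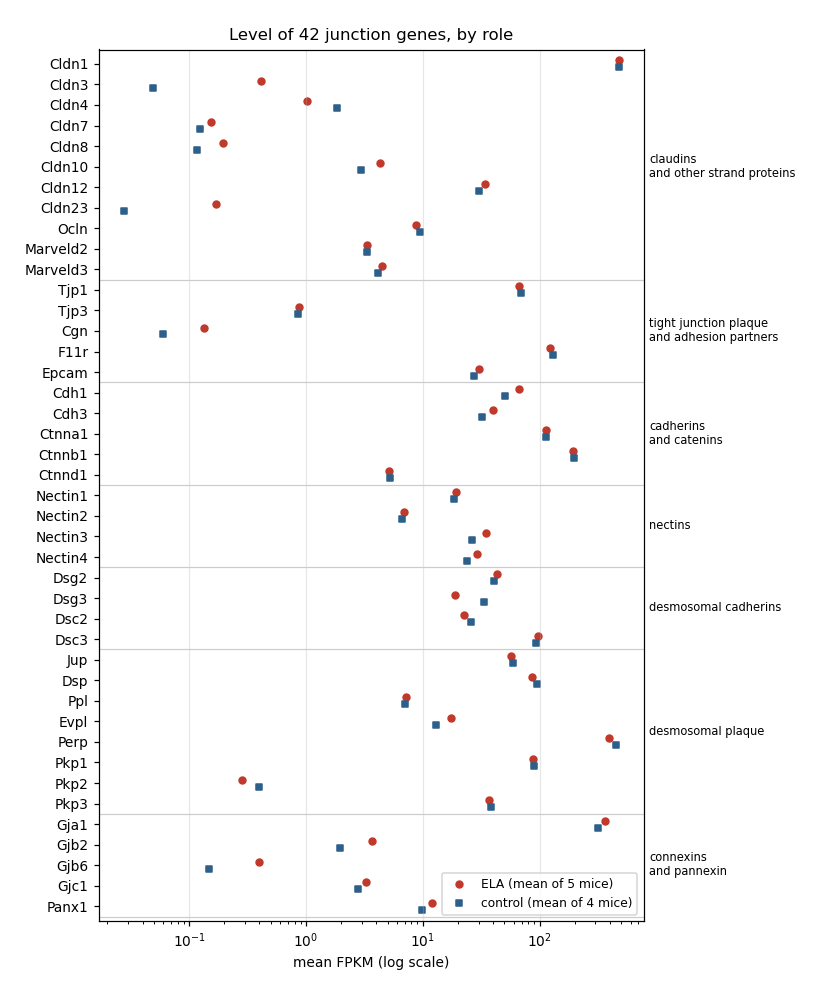
Mean FPKM of each of the 42 junction genes (log axis) in 5 ELA mice (circles) and 4 control mice (squares), grouped by role. Cldn1, Perp and Gja1 were the highest in both groups, at 315 FPKM or more, and the pairs of points were close for most genes except those under 1 FPKM.

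Within the 42 genes, each family was carried mainly by 1 or a few members. Cldn1 made up 88.8% to 94.9% of the summed FPKM of the 8 claudin genes in ELA mice and 92.4% to 95.5% in 3 of the control mice, and in control mouse 1 it made up 74.1%. Claudins outside these 8 are not in that sum, among them Cldn20, at 63.4 ± 21.5 FPKM in ELA mice, against 54.2 ± 26.5 FPKM in control mice. Gja1 made up 97.2% to 98.6% of the summed FPKM of the 4 connexin genes in ELA and 98.0% to 98.7% in control mice. Among desmosomal cadherins Dsc3, desmocollin 3, held the largest share, at 48.3% to 62.0% in ELA and 39.9% to 55.7% in control mice. Cdh1 (E-cadherin) exceeded Cdh3 (P-cadherin), with 57.4% to 67.9% of their sum in ELA and 56.8% to 64.1% in control mice. In every one of these shares the ranges of ELA and control mice overlapped.

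No junction gene passed the test between ELA and control. The edgeR quasi-likelihood test with Benjamini-Hochberg adjustment over all 15909 genes called 0 of 37 higher in ELA, against 0.0377% of all genes, and 0 lower, against 0.0251% of all. The lowest adjusted p of any member was 0.628, for Gjb2. DESeq2, the tool named in the study's methods, likewise called 0 higher and 0 lower, against 0.411% of all genes higher and 0.307% lower. Without adjustment, 4 of 37 were at p under 0.05 and higher in ELA in edgeR (Nectin3, Nectin4, Evpl and Gjb2), against 3.56% of all genes, and 0 were lower, against 2.89% of all. DESeq2 added Gjb6 to these 4 among the tested members. The count of 4 was 1 without control mouse 2 (Nectin3), 2 without ELA mouse 3 (Gjb2 and Gjb6) and 7 without ELA mouse 5, and it was 2 (Nectin3 and Gjb2) without ELA mice 2 and 4 together. Groups did not overlap in 1 gene that was higher in ELA, Nectin4, against 1.39% of all genes, and in 0 that were lower, against 1.29%. The count of 1 was 2 without ELA mouse 5 or control mouse 1, and 3 without control mouse 3 or control mouse 4.

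Most log2 fold changes were small. Of the 37 genes, 21 had a positive and 16 a negative value, the median was 0.03 against 0.01 over all genes tested, and 28 lay between -0.3 and 0.3. For 30 of the 37, the 95% interval of the log2 fold change stayed between -1 and 1, so a change of 2-fold either way was outside the interval. For Cldn4, Cldn10, Dsg3, Pkp2, Gjb2 and Gjb6 the interval reached past one of these limits and for Cldn1 past both, and a 2-fold difference was not outside what the spread between mice allowed.

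**Figure D2:**
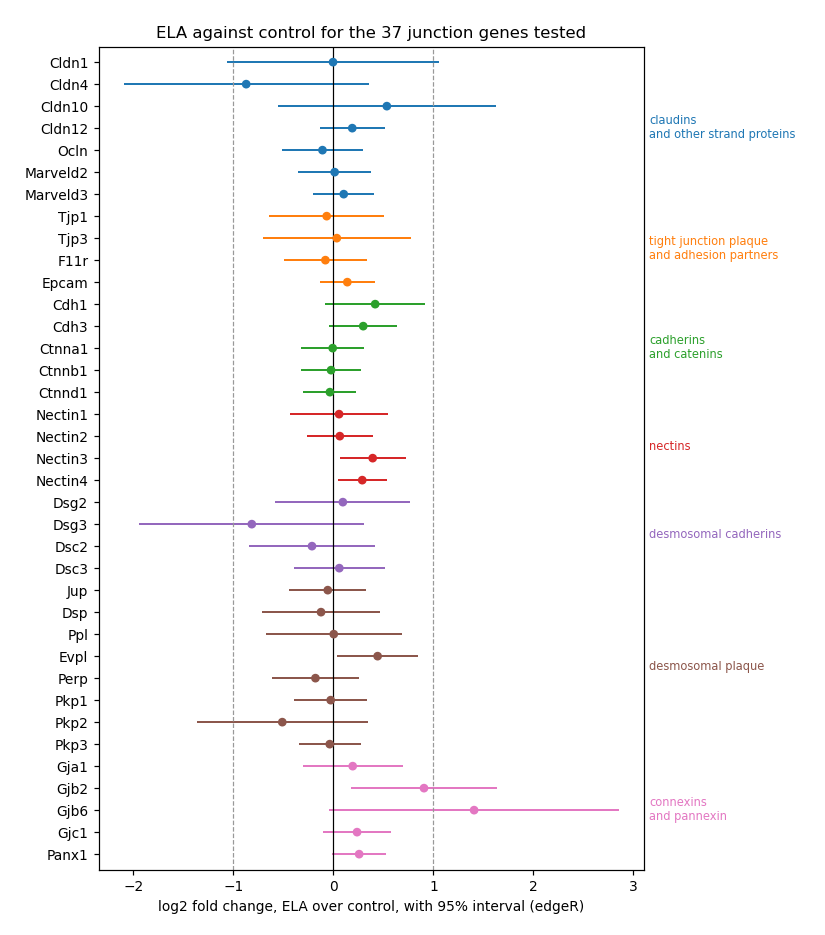
Log2 fold change of ELA over control (points) with its 95% interval (lines) from edgeR for the 37 junction genes tested, grouped and coloured by role, with dashed lines at -1 and 1. Intervals of Nectin3, Nectin4, Evpl and Gjb2 lay above 0 before adjustment, and those of Cldn4, Cldn10, Dsg3 and Gjb6 were the widest.

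Claudins and the other strand proteins had 7 tested members, 4 positive and 3 negative, with a median log2 fold change of 0.01. Cldn1 (ENSMUSG00000022512, chr16:26356642-26371841) had 2766, 1843, 3873, 1658 and 1338 CPM in ELA mice 1 to 5, against 511, 3278, 3202 and 2214 CPM in control mice 1 to 4. Control mouse 1 was the lowest of all 9 and the groups overlapped over nearly their whole range. The log2 fold change was -0.00 ± 0.48 (SE), with a 95% interval from -1.06 to 1.06 (edgeR adjusted p = 0.999). Without control mouse 1 the value was -0.34.

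Cldn4, a claudin of tight epithelia, had 1.48, 4.60, 1.51, 0.350 and 1.36 CPM in ELA mice 1 to 5, against 1.63, 4.24, 3.85 and 3.79 CPM in control mice 1 to 4. ELA mouse 2, the library with the keratinized markers, was the highest of all, and the other 4 ELA mice lay below every control mouse. The log2 fold change was -0.87 ± 0.56 (SE; edgeR adjusted p = 0.908). Without ELA mouse 2 it was -1.53, past the unadjusted threshold in edgeR but not the adjusted one (adjusted p = 0.436). The part in this of cells that express the keratinized markers was not tested.

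Cldn10, which encodes an ion-permeable claudin, had 11.1 ± 5.85 CPM in ELA mice, against 7.67 ± 4.73 CPM in control mice. Cldn12 was at 145 ± 23.5 CPM in ELA mice, against 127 ± 14.1 CPM in control mice. Both differences were within the spread between mice (edgeR adjusted p = 0.980 and 0.953). The tetraspan proteins occludin (Ocln), tricellulin (Marveld2) and Marveld3 differed by log2 -0.11, 0.01 and 0.10, and their intervals lay between -0.51 and 0.41.

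The claudin genes that were not tested gave few reads. Cldn3 had 7, 12, 8, 25 and 2 reads in ELA mice 1 to 5, against 1, 2, 2 and 0 reads in control mice 1 to 4, and it overlaps Wbscr25 on the other strand. Cldn23 had 1, 23, 1, 1 and 5 reads in ELA mice, against 2, 1, 1 and 0 in control mice. Of the 31 reads of Cldn23 in ELA mice, 23 came from the library with the keratinized markers. Cldn7 gave 33 reads over the 5 ELA mice and 20 over the 4 control mice, and Cldn8 gave 51 over ELA and 22 over control mice.

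The plaque and adhesion partners of the tight junction had 4 tested members, 2 positive and 2 negative, and 0 of them passed the test. F11r, the junctional adhesion molecule JAM-A and the most abundant gene of this role, had 410, 302, 382, 221 and 321 CPM in ELA mice 1 to 5, against 288, 375, 419 and 300 CPM in control mice 1 to 4. The groups overlapped, and the log2 fold change was -0.08 ± 0.19 (SE; edgeR adjusted p = 0.999). Epcam, an epithelial adhesion molecule that binds claudins, had 67.0, 66.0, 63.2, 48.4 and 62.6 CPM in ELA mice, against 51.2, 55.5, 62.9 and 53.3 CPM in control mice. Except in ELA mouse 4, the lowest of all 9, its ELA values were near or above the highest control value (log2 fold change 0.14 ± 0.13, SE; edgeR adjusted p = 0.979). Tjp1, the scaffold ZO-1, was at 516 ± 206 CPM in ELA mice, against 540 ± 133 CPM in control mice. Tjp3 (ZO-3), at 3.23 ± 0.93 CPM in ELA mice, against 3.15 ± 1.58 CPM in control mice, was far less abundant, and it overlaps Apba3 on the other strand. Cgn (cingulin) was not tested, with 0, 41, 7, 25 and 12 reads in ELA mice 1 to 5, against 9, 8, 7 and 5 reads in control mice 1 to 4.

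Among cadherins and catenins, both classical cadherins had a higher mean in ELA and the 3 catenins did not. Cdh3 had 199, 173, 170, 174 and 150 CPM in ELA mice 1 to 5, against 180, 119, 116 and 148 CPM in control mice 1 to 4. All ELA mice exceeded 3 of the 4 control mice, and control mouse 1 overlapped them (log2 fold change 0.30 ± 0.15, SE; edgeR adjusted p = 0.830). Cdh1 had 394, 288, 260, 383 and 212 CPM in ELA mice, against 330, 172, 215 and 203.6 CPM in control mice. Control mouse 1 again lay within the ELA range, and the test was not passed (log2 fold change 0.42 ± 0.23, SE; edgeR adjusted p = 0.850). Without control mouse 1, the log2 fold change was 0.44 for Cdh3 and 0.64 for Cdh1, both past the unadjusted threshold and neither past the adjusted one (edgeR adjusted p = 0.695 for both).

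Ctnnb1, which encodes beta-catenin, the link of cadherins to the actin skeleton and a transducer of Wnt signals, had 1129, 1017, 1059, 939 and 895 CPM in ELA mice 1 to 5, against 924, 1073, 1161 and 939 CPM in control mice 1 to 4. The ranges nearly coincided. Its 95% interval was among the narrower ones, from -0.32 to 0.27 (log2 fold change -0.02 ± 0.14, SE; edgeR adjusted p = 0.999). Ctnna1 and Ctnnd1, alpha- and p120-catenin, had log2 fold changes of -0.01 and -0.03. The level of Ctnnd1, 5.10 FPKM in ELA mice, against 5.23 FPKM in control mice, is uncertain, because the annotation places Gm28635 on the same strand over it.

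The nectins, which start cell contacts and bind afadin inside the cell, all had a positive log2 fold change, with a median of 0.18 (Nectin1 ran from -0.11 to 0.24 and Nectin2 from -0.00 to 0.15 when a mouse was left out, and Nectin1 was -0.01 on plain library totals). Nectin3 (ENSMUSG00000022656, chr16:46387706-46498525) was the most abundant of the 4 in FPKM. It had 471, 413, 533, 445 and 360 CPM in ELA mice 1 to 5, against 278, 356, 381 and 339 CPM in control mice 1 to 4. Of the ELA mice, 4 lay above every control mouse and mouse 5 fell within the control range. The means were 445 ± 64.4 CPM in ELA mice, against 338 ± 44.1 CPM in control mice (log2 fold change 0.39 ± 0.15, SE; edgeR adjusted p = 0.659).

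Nectin4 (ENSMUSG00000006411, chr1:171370099-171388598) had 102, 121, 124, 99.4 and 104 CPM in ELA mice 1 to 5, against 88.1, 88.4, 90.4 and 93.3 CPM in control mice 1 to 4. Every ELA mouse was above every control mouse, although on plain library totals the groups overlapped. Nectin4 was past the unadjusted threshold in 7 of 16 alternatives. It was not when counts were summed by title tag, on plain library totals or with no filter. Nor was it without ELA mouse 2, ELA mouse 3 or control mouse 1, 2 or 3, or without ELA mice 2 and 4 together. Mice of a group also lay close together, with the smallest within-group SD of the 37 members (log2 fold change 0.29 ± 0.11, SE; edgeR adjusted p = 0.666). Nectin1 and Nectin2 had log2 fold changes of 0.06 each, with intervals from -0.44 to 0.55 and from -0.26 to 0.39. In people, nectin 1 and nectin 4 are known from syndromes of ectodermal dysplasia. The p-values of both Nectin3 and Nectin4 did not pass after adjustment over all genes. The summed markers of the stratum intermedium or papillary layer, most of which was Alpl, were also higher in every ELA mouse than in every control mouse. So were the summed ameloblast markers, most of which was Ambn and Amelx, while Odam had a lower mean in ELA. Of the 6 markers of the stratum intermedium or papillary layer, only Alpl had groups that did not overlap. The part of these cells in the values of nectins and connexins was not tested.

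**Figure D3:**
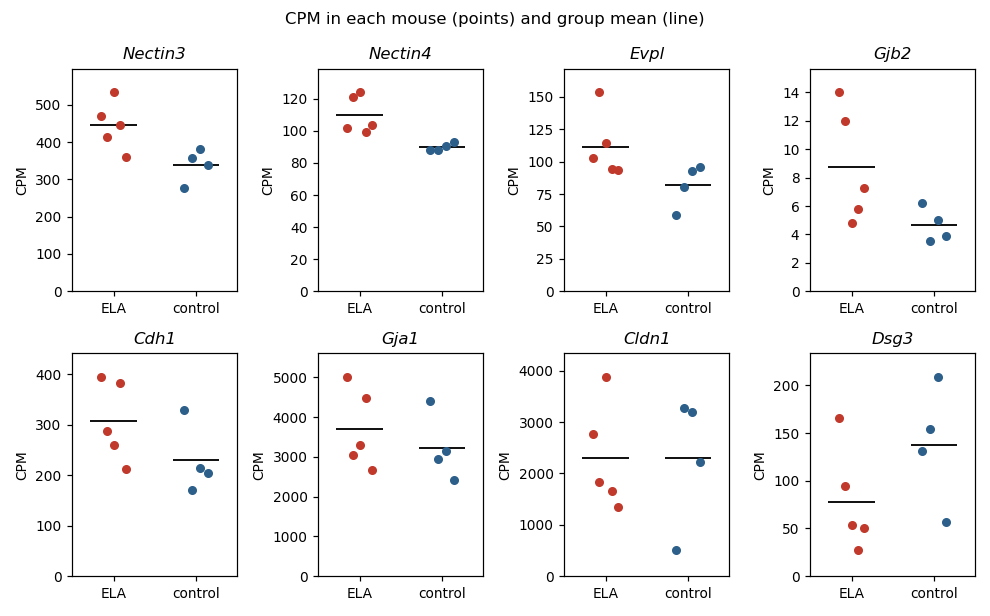
CPM of 8 junction genes in each mouse (points) with the group mean (line), ELA left and control right, on axes that start at 0. Nectin4 is the gene whose groups did not overlap, Nectin3, Evpl and Gjb2 overlapped in part, and Cldn1 and Dsg3 were spread widely within each group.

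Desmosomal cadherins had 2 positive and 2 negative members, with a median log2 fold change of -0.08. Dsc3 had 728, 499, 542, 510 and 346 CPM in ELA mice 1 to 5, against 600, 528, 517 and 370 CPM in control mice 1 to 4. The groups overlapped fully (log2 fold change 0.06 ± 0.21, SE; edgeR adjusted p = 0.999). Dsg3, desmoglein 3 of the basal layers of stratified epithelium, had 166, 94.2, 53.3, 27.4 and 50.2 CPM in ELA mice, against 131, 154, 208 and 56.4 CPM in control mice. ELA mouse 1 lay among the higher control mice and ELA mice 3, 4 and 5 lay below all of them. The log2 fold change was -0.82 ± 0.51 (SE), with a 95% interval from -1.94 to 0.31 (edgeR adjusted p = 0.901). Without ELA mouse 1 it was -1.28, past the unadjusted threshold in edgeR but not the adjusted one (adjusted p = 0.516). Dsc2 averaged 118 ± 44.8 CPM in ELA mice, against 137 ± 43.0 CPM in control mice, and Dsg2 averaged 356 ± 153 CPM in ELA mice, against 334 ± 114 CPM in control mice.

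Dsg3 and Krt6a, a keratin of the marker list, were low in the same mice. Krt6a had 261, 368, 88.0, 77.8 and 128 CPM in ELA mice 1 to 5, against 456, 297, 414 and 146 CPM in control mice 1 to 4. ELA mice 3, 4 and 5 and control mouse 4 were the lowest 4 mice for Krt6a and for Dsg3. The same mice were lowest for 2 of the 12 keratinized markers (Krt6a and Dsg1a) and for their sum, most of which was Krt6a outside ELA mouse 2. Without Krt6a, the sum was 68.8, 3419, 59.6, 33.5 and 57.4 CPM in ELA mice 1 to 5, against 166, 228, 222 and 84.8 CPM in control mice 1 to 4, so that ELA mouse 1 and not control mouse 4 was among the lowest 4. ELA mice 3, 4 and 5 and control mouse 4 were also the lowest 4 for Dsc2, Ppl and Perp, which makes 4 of 37 junction genes, against 2.37% of all genes tested. The pattern was noticed after the values were seen. The part in these values of cells that express the keratinized markers was not tested.

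**Figure D4:**
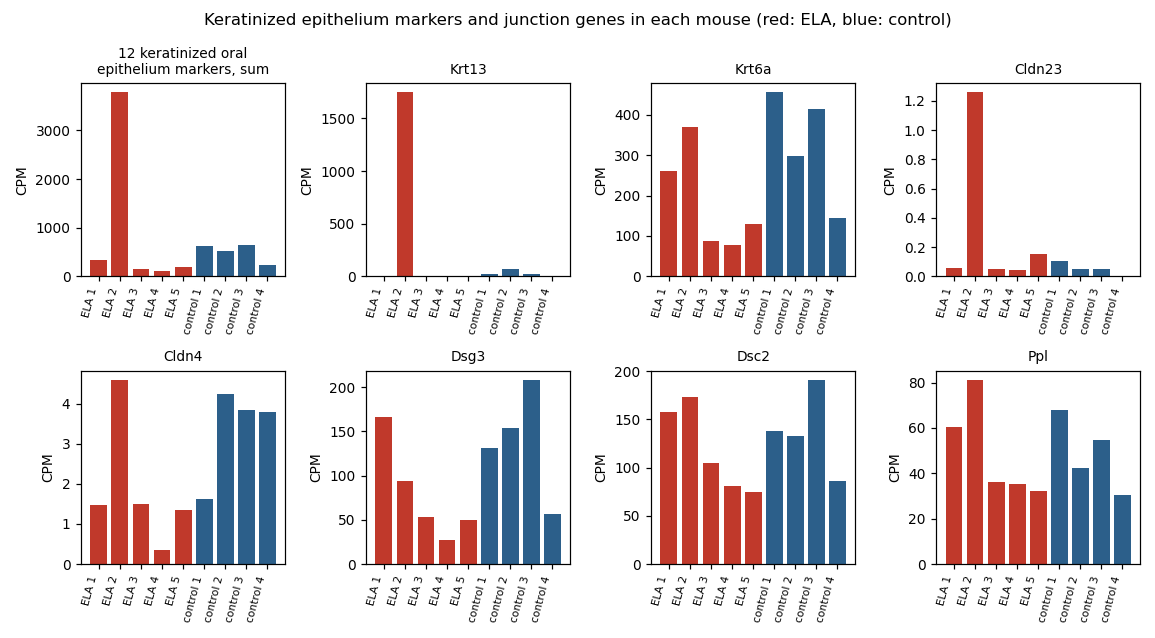
CPM in each mouse (ELA bars left in red, control bars right in blue) of the summed keratinized oral epithelium markers, 2 of those markers (Krt13 and Krt6a) and 5 junction genes. ELA mouse 2 stood out for the sum, Krt13 and Cldn23, and ELA mice 3, 4 and 5 and control mouse 4 were low for Krt6a, Dsg3, Dsc2 and Ppl.

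The desmosomal plaque and its relatives had 8 members, 2 positive and 6 negative, with a median log2 fold change of -0.05. Perp had 978, 936, 739, 605 and 590 CPM in ELA mice 1 to 5, against 981, 917, 963 and 625 CPM in control mice 1 to 4. In both groups the values spread over the same range (log2 fold change -0.18 ± 0.20, SE; edgeR adjusted p = 0.999). Evpl (ENSMUSG00000034282, chr11:116220559-116238077), envoplakin, which links desmosomes and the cornified envelope to keratins, had 103, 153, 114, 94.4 and 93.6 CPM in ELA mice, against 59.1, 80.6, 93.2 and 95.8 CPM in control mice. ELA mice 4 and 5 lay beside the higher control mice, and ELA mouse 2 was the highest. The means were 112 ± 24.8 CPM in ELA mice, against 82.2 ± 16.8 CPM in control mice (log2 fold change 0.44 ± 0.19, SE; edgeR adjusted p = 0.709). Without ELA mouse 2, the library with the keratinized markers, the log2 fold change was 0.30 and was no longer past the unadjusted threshold (edgeR adjusted p = 0.82).

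The remaining plaque genes did not pass the test. Dsp (desmoplakin), which ties the plaque to keratins, averaged 834 ± 310 CPM in ELA mice, against 909 ± 241 CPM in control mice. Jup (plakoglobin) averaged 369 ± 81.9 CPM in ELA mice, against 384 ± 49.0 CPM in control mice. Of the plakophilins, Pkp1 and Pkp3 had log2 fold changes of -0.03 and -0.04, with intervals within -0.39 and 0.34. Pkp2, under 1 FPKM in both groups, had 1.51 ± 0.75 CPM in ELA mice, against 2.14 ± 0.45 CPM in control mice (edgeR adjusted p = 0.949). Ppl (periplakin), a partner of Evpl, had a log2 fold change of 0.00, with 60.4 and 81.2 CPM in ELA mice 1 and 2 and 32.2 to 36.3 CPM in ELA mice 3 to 5, against 30.4 to 68.1 CPM in control mice.

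All 5 connexin and pannexin genes had a positive log2 fold change, with a median of 0.26. Gja1 had 5002, 3044, 3293, 4471 and 2666 CPM in ELA mice 1 to 5, against 4403, 2942, 3151 and 2430 CPM in control mice 1 to 4. The highest control mouse lay within the upper ELA values (log2 fold change 0.19 ± 0.23, SE; edgeR adjusted p = 0.999). Gjb2 (ENSMUSG00000046352, chr14:57098600-57104702), which encodes connexin 26, had 14.0, 12.0, 4.78, 5.77 and 7.29 CPM in ELA mice, against 6.22, 3.56, 5.00 and 3.88 CPM in control mice. ELA mice 1 and 2 lay above all others, ELA mouse 5 above every control mouse, and ELA mice 3 and 4 within the control range. The log2 fold change was 0.91 ± 0.33 (SE; edgeR adjusted p = 0.628).

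Gjb6 (connexin 30), which lies next to Gjb2 on chromosome 14 and often shares channels with it, gave few reads, with 5, 35, 12, 38 and 25 in ELA mice 1 to 5, against 17, 6, 5 and 3 in control mice 1 to 4. ELA mice 2 and 4, the libraries with keratinized and with neuronal markers, had the most. The log2 fold change was 1.41 ± 0.66 (SE), with a 95% interval from -0.04 to 2.86 (edgeR adjusted p = 0.798), and without these 2 libraries together it was 0.53 (edgeR adjusted p = 0.99998). Panx1, a channel protein related to connexins in shape, averaged 71.6 ± 8.05 CPM in ELA mice, against 59.9 ± 6.63 CPM in control mice (edgeR adjusted p = 0.806). Gjc1 (connexin 45) averaged 16.5 ± 2.55 CPM in ELA mice, against 14.0 ± 1.69 CPM in control mice (edgeR adjusted p = 0.913).

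Mice of a group varied among themselves about as much for junction genes as for other genes. The within-group SD of log2 CPM had a median of 0.31 over the 37 members, against 0.30 over all genes tested. Cldn1 (0.95), Dsg3 (0.91), Cldn10 (0.85) and Cldn4 (0.78) had the largest, at percentiles 98.0, 97.7, 97.1 and 96.3 of all genes tested, and Nectin4 (0.12) had the smallest. The ELA mice split by the tag in their titles. Both t-205 mice were above all 3 t-203 mice in 12 of 37 members, against 9.59% of all genes tested, and 9 of the 12 were desmosomal (Dsg3, Dsc2, Jup, Dsp, Ppl, Perp, Pkp1, Pkp2 and Pkp3). The other members were Marveld2, Epcam and Gjb2. The keratinized markers summed to 330 and 3787 CPM in the t-205 mice, against 111 to 186 CPM in the t-203 mice, but only 3 of the 12 (Krt10, Krt6a and Dsg1a) were above in both t-205 mice, and in ELA mouse 1 the sum without Krt6a was 68.8 CPM, against 33.5 to 59.6 CPM in the t-203 mice. Their part in this was not tested. The t-205 mice were below in 2 members, Cldn10 and Gjc1, against 9.01% of all. ELA mouse 1 was the highest of all 9 mice for 14 of 37 members, against 15.6% of all genes, and ELA mouse 4 was the lowest for 12 of 37, against 18.8% of all.

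**Figure D5:**
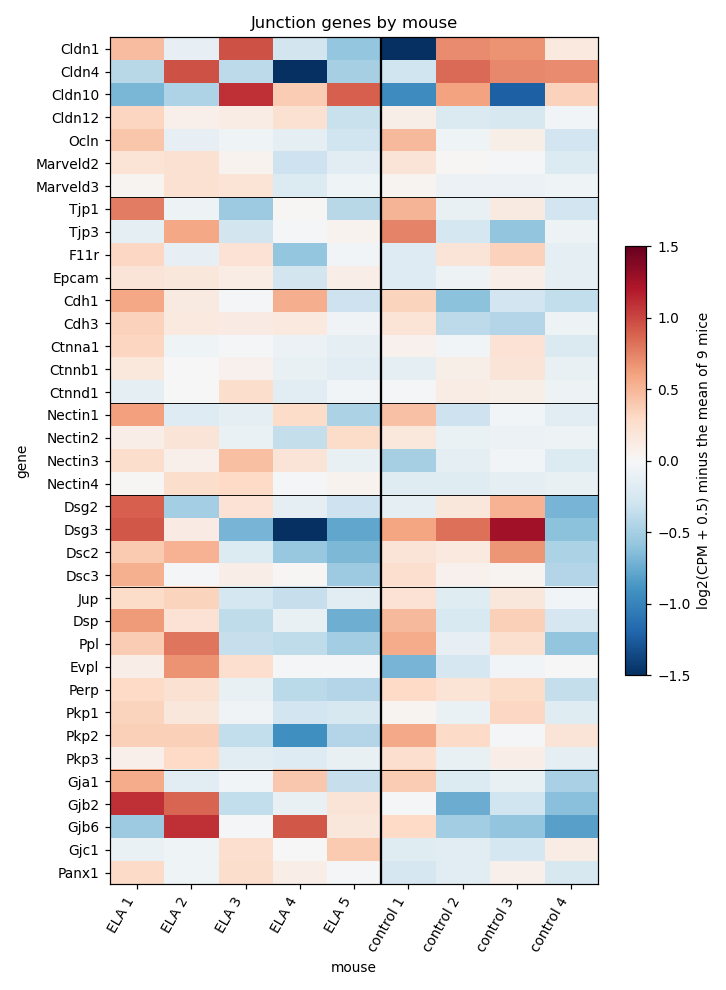
Log2(CPM + 0.5) of the 37 tested junction genes in each mouse minus the gene's mean over 9 mice, ELA mice left and control mice right of the vertical line, with colours limited at -1.5 and 1.5 and roles separated by horizontal lines. Desmosomal genes were mostly above the mean in ELA mice 1 and 2 and below it in ELA mice 3 to 5, and control mouse 1 was low for Cldn1.

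Other genes of the same junctions or linked to them, listed as background to the 42, were tested in the same fit. Of 25 further tight junction genes tested, with a median log2 fold change of 0.10 against 0.01 over all genes tested, 0 passed in edgeR. At an unadjusted p under 0.05, 4 were higher in ELA (Cldn2, Ildr2 and Magi1 among them), against 3.56% of all genes. At the same threshold 2 were lower (Cldn19 and Jam3), against 2.89% of all. The clearest was Cldn2, which encodes a claudin that lets cations and water pass. It had 0.383, 0.821, 1.56, 1.84 and 1.27 CPM in ELA mice 1 to 5, against 0.158, 0.0963, 0.05 and 0.144 CPM in control mice 1 to 4. Every ELA mouse was above every control mouse, at a level of few reads (log2 fold change 3.33, edgeR adjusted p = 0.0793, DESeq2 adjusted p = 0.0013).

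Of 18 further adherens junction genes tested, with a median log2 fold change of 0.16 against 0.01 over all genes tested, 0 passed in edgeR. At an unadjusted p under 0.05, Cdh2 (N-cadherin), Ctnna2 and Ctnnal1 were higher in ELA, against 3.56% of all genes. Only Cdh11 was lower at that threshold, against 2.89% of all. Cdh11, a cadherin of mesenchymal cells, had 215, 187, 179, 236 and 221 CPM in ELA mice 1 to 5, against 315, 358, 263 and 284 CPM in control mice 1 to 4. The groups did not overlap (log2 fold change -0.55, edgeR adjusted p = 0.273, DESeq2 adjusted p = 0.0349). The mesenchymal markers, which summed to 11516 to 23342 CPM in ELA mice, against 14747 to 30540 CPM in control mice, moved the same way, and their part in it was not tested. Cdh2 had 190, 168, 194, 232 and 134 CPM in ELA mice, against 143, 116, 107 and 151 CPM in control mice, so that all ELA mice except mouse 5 exceeded every control mouse (log2 fold change 0.51, edgeR adjusted p = 0.569).

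Of 9 further genes listed with desmosomes and 8 listed with gap junctions and pannexins that were tested, 0 were past an unadjusted p of 0.05 in either direction. The desmosome list was broad and also held the keratins Krt5 and Krt14 as well as Dst, Plec, Ajuba and Tmem47. The gap junction list also held Tjap1, a tight junction gene. Tested genes of the desmosome list had 4 positive and 5 negative log2 fold changes, with a median of -0.08. Unlike the 5 connexin and pannexin members, the tested genes of the gap junction list had 1 positive and 7 negative values, with a median of -0.14. Some genes of these lists with too few reads for a test were raised in 1 library. Dsc1, desmocollin 1, had 5.15 CPM in ELA mouse 2, the library with the keratinized markers, and at most 0.949 CPM in any other mouse. Gjd2, a connexin of neurons, had 1.88 CPM in ELA mouse 4, the library with the neuronal markers, and at most 0.0309 CPM elsewhere.

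Regulators of epithelial and junction genes, most of them transcription factors and some, such as Esrp1, splicing factors, were tested alongside. Of 17 tested, 0 passed in edgeR and 0 were higher at an unadjusted p under 0.05, against 3.56% of all genes. Zeb2 and Twist2, repressors of E-cadherin that mesenchymal cells express, were lower in ELA at that level, against 2.89% of all genes. Zeb2 had 94.0, 72.4, 61.3, 95.9 and 58.1 CPM in ELA mice 1 to 5, against 123, 106, 82.9 and 99.6 CPM in control mice 1 to 4, and the groups overlapped at control mouse 3 (log2 fold change -0.43, edgeR adjusted p = 0.701). Grhl2, Klf5, Trp63, Esrp1 and Snai2, which include activators of epithelial genes, a splicing factor (Esrp1) and a repressor, had log2 fold changes between -0.14 and 0.32, none past the unadjusted threshold. Over all 17, 9 values were positive and 8 negative, from -0.89 (Twist2) to 0.60 (Grhl1, not past the unadjusted threshold).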

How the data were processed

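The authors deposited 1 table of whole-number read counts per gene for 9 enamel organ libraries (poly(A) capture). Of the tools, the submitters' processing notes list CASAVA, HISAT2 and HISAT, with no version. Which program counted the reads, whether it used strand, and on which build, was not given in the sources used here, so genes that overlap on either strand are uncertain. Columns of the table that held other values than counts of these mice were used only for names, positions and gene length, and 0 columns of sample values were left unused. Fragments per kilobase (FPKM) in the text were computed here from the deposited counts and gene lengths on TMM-scaled totals. They serve to compare levels of genes.

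All 9 mice entered 1 fit of ELA against control with edgeR 4.0.16 in R 4.3.3 (filterByExpr with a minimum count of 10, TMM, robust quasi-likelihood fit and test, two-sided, Benjamini-Hochberg over 15909 genes, threshold 0.05). The study's methods used DESeq2, run here as an alternative (1.42.0), as was limma-voom (limma 3.58.1). Other alternatives were median-ratio size factors, plain library totals, no filter, counts summed by title tag (2 against 2), 9 fits that each left out a mouse, and, chosen after seeing the data, a fit without ELA mice 2 and 4. The fit was tested on simulated counts. Each pair of libraries of a group differed by more than sampling noise, with a chi-square of 21.3 to 134.4 for each degree of freedom, and all 9 were kept. The p-values set the difference between groups against the spread between mice of a group, and they take the mice as independent. If mice that share a title tag are not independent, the p-values may be too small. Intervals cover 95%.

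Members and lists were chosen with earlier results of these data known. Values for every mouse were printed for genes at an unadjusted p under 0.05, genes whose groups did not overlap, and in each role the gene with the highest FPKM and the gene with the lowest p. Cdh1, Gjb6, Cldn3, Cldn23, Cgn and Krt6a were added after their values were seen. Of the other lists, genes at an unadjusted p under 0.05 were named, up to the 4 with the lowest p, and Cldn2, Cdh11, Cdh2 and Zeb2 were given by mouse. Some genes of these lists are not reported here. Promoters were read from a RefSeq table on GRCm38.p6. Protein sequences were not used here.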

Additional observations from a re-analysis of the deposited data

Results flagged for a closer look

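In 7 of 84 pairs of a junction gene and a group, 1 mouse lay far from the others by Dixon's ratio. The nominal rate of about 1 in 20 assumes normally distributed values. The share over all genes was not computed, and some of these genes gave few reads, so the count of 7 cannot be judged against a background. In ELA mouse 2, the library with keratinized oral epithelium markers, Cldn4 was at 4.60 CPM, against 0.350 to 1.51 CPM in the other ELA mice, and Cldn23 was at 1.26 CPM, against 0.0437 to 0.154 CPM. In ELA mouse 1, Ocln was at 50.4 CPM, against 30.7 to 35.9 CPM, and Ctnna1 at 519.7 CPM, against 376 to 407 CPM in the other ELA mice. In ELA mouse 4, Epcam was at 48.4 CPM, the lowest, against 62.6 to 67.0 CPM. In control mouse 1, Marveld3 was at 14.6 CPM, against 13.3 to 13.5 CPM in the other control mice, and Nectin2 at 26.3 CPM, against 21.9 to 22.2 CPM. The low Cldn1 of control mouse 1, at 511 CPM, was not among these, since the other 3 control mice were themselves spread from 2214 to 3278 CPM.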

How the results depend on the processing

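No junction gene passed the adjusted threshold under any of the 16 alternatives, with a lowest adjusted p of 0.311 (Gjb2 in DESeq2). At an unadjusted p under 0.05, 2 were higher in ELA on plain library totals and 2 without ELA mice 2 and 4, in place of 4, and 1 to 7 when a mouse was left out; 1 was lower (Cldn4) in limma-voom and 1 (Cldn4) without ELA mice 2 and 4, in place of 0, and 0 to 1 when a mouse was left out. DESeq2, no filter and counts summed by title tag gave 6 higher, Cldn3 among them each time. Groups did not overlap in 0 higher genes on plain library totals, in place of 1, and in 1 to 3 when a mouse was left out; 1 lower gene did not overlap without ELA mice 2 and 4, in place of 0, and 0 to 1 when a mouse was left out. The median log2 fold change of the members ran from -0.05 to 0.13. Nectin3, Nectin4, Evpl, Gjb2, Gjb6, Cdh1 and Cdh3 stayed positive and Cldn4 and Dsg3 negative in all 16. Of 592 values, 71 in 18 of 37 genes turned in sign, the cause of which was not tested: on plain library totals Marveld2 (-0.051), Tjp3 (-0.022), Nectin1 (-0.012), Dsc3 (-0.0057) and Ppl (-0.049); in limma-voom Cldn1 (0.21), Marveld2 (-0.012) and Ppl (-0.037); with median-ratio factors Cldn1 (0.00096); summed by title tag Ctnna1 (0.0018) and Pkp1 (0.0034); and without ELA mice 2 and 4 Cldn1 (0.21), Tjp3 (-0.17), F11r (0.10), Ctnna1 (0.047), Ctnnb1 (0.0059), Ctnnd1 (0.0095), Ppl (-0.19) and Pkp1 (0.0043). Leaving out a mouse gave Cldn1 (-0.34 to 0.22), Ocln (-0.24 to 0.058), Marveld2 (-0.052 to 0.088), Tjp1 (-0.33 to 0.10), Tjp3 (-0.15 to 0.43), F11r (-0.17 to 0.033), Ctnna1 (-0.091 to 0.067), Ctnnb1 (-0.070 to 0.042), Ctnnd1 (-0.11 to 0.0038), Nectin1 (-0.11 to 0.24), Nectin2 (-0.0031 to 0.15), Dsg2 (-0.18 to 0.31), Dsc3 (-0.081 to 0.18), Jup (-0.15 to 0.017), Dsp (-0.33 to 0.019), Ppl (-0.25 to 0.21), Pkp1 (-0.12 to 0.079) and Pkp3 (-0.12 to 0.044). No paired analysis was possible because ELA and control titles share no tag and replicates were numbered in accession order. On counts summed by title tag (2 against 2), Nectin4 was not at an unadjusted p under 0.05, and Nectin3, Evpl and Gjb2 were. Cldn3, Cldn7, Cldn8 and Cldn23 had 31 to 54 reads over the 5 ELA mice and 4 to 22 over the 4 control mice, which limits what can be said of them.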
